A study of Mus musculus with 10 samples.

Results

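Fasting and glucagon act on the liver in part through a small set of transcription factors and coactivators, and 10 of them are described here: Creb3l3, Ppargc1a, Ppargc1b, Klf15, Foxo1, Foxo3, Crtc2, Cebpa, Cebpb and Foxa2. They were chosen by symbol as known glucagon and fasting regulators of hepatic transcription, with earlier results of these data known. They are 10 of the 24421 genes in the count table, and all 10 passed the filter on low counts that left 11092 genes for testing. Of the 10, only Ppargc1b differed between the groups at an edgeR adjusted p under 0.05, and it was lower in TM5614.

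Between meals, glucagon raises cyclic AMP in hepatocytes, which activates the DNA-binding factor CREB and lets its coactivator CRTC2 enter the nucleus. Falling insulin lets FOXO1 and FOXO3 enter the nucleus as well. These factors act with C/EBP proteins, KLF15, FOXA2 and the coactivator PGC-1α (the product of Ppargc1a) on genes of gluconeogenesis, amino acid catabolism and fatty acid oxidation. PGC-1β (the product of Ppargc1b) is a related coactivator, of lipogenic and mitochondrial genes. CREB3L3 is a liver-enriched factor held in the endoplasmic reticulum membrane until it is cut free. Much of the control of these proteins is by phosphorylation, location or cleavage, which mRNA levels do not report.

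Liver mRNA was sequenced from 10 male wild-type C57BL/6 mice (C57BL/6J in the study's methods) of 21 weeks, all fed ad libitum. Standard chow was given to the Chow group (n = 5). Mice of the TM5614 group (n = 5) received chow mixed with TM5614, an orally active small-molecule inhibitor of plasminogen activator inhibitor-1, at 20 mg/kg/day for 10 days. Each mouse gave 1 whole-liver library, so the replicates were separate animals of 1 sex, strain, dose and time.

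Promoter windows of 250 bases before the start of transcription were available for 8 of the 10 members, as 11 windows, in the RefSeq annotation of GRCm38.p6. Ppargc1b and Crtc2 had no window, so the search says nothing about them. Each window was searched on both strands for the cyclic AMP response element in full (TGACGTCA) and in part (TGACG, which the full element also holds), a FOXO site (TGTTTAC), a C/EBP site (TTGCNNAA), the E-box of clock factors (CACGTG) and a D-box (TTATGNAA). The partial element was present for 5 members, Cebpb, Klf15, Ppargc1a, Foxo3 and Creb3l3, and among all 32851 windows of this length 17.8% held it. For Creb3l3 the match was in a window inside the gene (chr10:81092592-81092841), and the window at the start of the gene held none. The E-box was present for 1 member, Klf15, and 6.02% of all windows held it. A member was counted if any of its windows held the letters. These counts of members are therefore not directly comparable with the shares of single windows. The full element (1.55% of all windows), the FOXO site (3.17%), the C/EBP site (9.56%) and the D-box (3.07%) were in none of the members' windows, which says only that these letters are not there. Of these windows, that of Ppargc1a is shown because it held the partial element in a gene that CREB is known to act on, and that of Klf15 because it held the E-box, a site that ARNTL, one of the clock factors described further on, binds with CLOCK. Capitals mark the partial cyclic AMP response element in the first, read on the opposite strand at position -49 from the start, and both E-boxes in the second.
Ppargc1a, chr5:51567726-51567975, minus strand: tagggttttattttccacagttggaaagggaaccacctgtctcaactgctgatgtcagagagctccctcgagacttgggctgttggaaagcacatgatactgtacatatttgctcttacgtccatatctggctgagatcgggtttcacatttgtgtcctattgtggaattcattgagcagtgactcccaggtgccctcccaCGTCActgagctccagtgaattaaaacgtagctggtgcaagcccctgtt
Klf15, chr6:90462326-90462575, plus strand: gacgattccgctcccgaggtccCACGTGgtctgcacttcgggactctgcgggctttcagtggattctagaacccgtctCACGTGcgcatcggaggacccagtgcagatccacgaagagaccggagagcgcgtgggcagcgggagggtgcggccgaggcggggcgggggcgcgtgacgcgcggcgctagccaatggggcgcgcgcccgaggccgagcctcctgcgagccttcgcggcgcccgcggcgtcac

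The total count per library ranged from 6398335 to 10874955. Of the 11092 genes tested, 499 (4.50%) differed between the groups at an edgeR adjusted p under 0.05. Among them 192 (1.73%) were higher in TM5614 and 307 (2.77%) were lower. Chow replicate 2 stood apart from the other libraries. Its mean correlation with its own group was 0.927, against 0.965 to 0.982 for the other 9, and it was the highest or the lowest Chow library for 77.6% of the genes tested, against 22.4% to 37.8% for the other Chow libraries. A smooth trend on GC content and transcript length accounted for 46.0% of its deviations from the usual level of each gene, against at most 11.5% elsewhere. Among the 10 members it was the highest Chow library for Creb3l3, Ppargc1b, Crtc2 and Cebpa and the lowest for Ppargc1a, Klf15, Foxo1 and Foxo3, so results are also given without it where they move. The edgeR fit without Chow replicate 2 called 1031 of 11162 genes (9.24%).

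Ppargc1b (chromosome 18, 61298136 to 61400431, minus strand, GRCm38) encodes PGC-1β, a coactivator of lipogenic and mitochondrial genes. Its level is given in CPM, which are counts scaled to a common library size with TMM factors. It stood at 20.4, 28.9, 15.8, 23.3 and 13.3 CPM in Chow replicates 1 to 5 and at 13.2, 11.8, 8.83, 12.1 and 11.3 CPM in TM5614 replicates 1 to 5. Every TM5614 library lay below every Chow library, though the gap between the highest TM5614 library and the lowest Chow library was small beside the Chow spread. The means were 20.3 ± 6.18 CPM (SD, n = 5) in Chow and 11.5 ± 1.62 CPM (SD, n = 5) in TM5614, with 145 to 300 and 77 to 110 counts behind single values. Ppargc1b fell by 0.83 on the log2 scale (SE 0.21, 95% interval -1.27 to -0.38, edgeR adjusted p = 0.0417). It was the only member whose groups did not overlap, while 8.93% of all genes tested had groups that did not overlap.

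The call for Ppargc1b sat close to the threshold. Its log2 fold change stayed between -0.95 and -0.62 under all 19 alternatives, and 11 of them called it. Without Chow replicate 2, its highest library, it fell by 0.67 (edgeR adjusted p = 0.0275), and with GC content and length taken out it fell by 0.66 (edgeR adjusted p = 0.0303). The call was lost with no filter on low counts (edgeR adjusted p = 0.0557). It was also lost without Chow replicate 1 or 4 (edgeR adjusted p of 0.0714 and 0.0969) and without TM5614 replicate 1, 2, 3, 4 or 5 (0.0680, 0.0762, 0.122, 0.0959 and 0.0957). In whole-liver RNA, fewer cells of a type and less RNA per cell cannot be told apart.

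The genes whose pattern over the 10 libraries was most like that of Ppargc1b, by root mean square difference in log2 CPM after centring each gene, were Plekhg6 (0.131), Tbc1d10a (0.162) and 1700001C19Rik (0.164). They were picked for this likeness, so their own changes add no separate evidence.

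Ppargc1a (chromosome 5, 51454250 to 51567726, minus strand) encodes PGC-1α, the coactivator that fasting and glucagon are known to induce. Its values were 25.6, 8.10, 24.5, 30.1 and 19.7 CPM in Chow replicates 1 to 5 and 20.2, 21.0, 23.5, 16.7 and 36.3 CPM in TM5614 replicates 1 to 5. The groups overlapped almost entirely, with Chow replicate 2 far below the rest and TM5614 replicate 5 above them. The means were 21.6 ± 8.41 and 23.6 ± 7.55 CPM (SD, n = 5 each). The log2 fold change was 0.14 (SE 0.30, 95% interval -0.52 to 0.80, edgeR adjusted p = 0.826), and it turned to -0.08 without Chow replicate 2 and, separately, to -0.08 without TM5614 replicate 5. The interval leaves room for changes of more than 0.5 on the log2 scale in either direction.

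Crtc2 (chromosome 3, 90254163 to 90264125, plus strand) encodes the CREB coactivator that moves into the nucleus when glucagon acts. It was measured at 48.9, 52.2, 42.7, 42.9 and 33.0 CPM in Chow and at 38.6, 36.5, 34.9, 32.3 and 33.7 CPM in TM5614. Only Chow replicate 5 reached into the TM5614 range. The log2 fold change was -0.32 (SE 0.13, 95% interval -0.60 to -0.04) and missed the threshold (edgeR adjusted p = 0.190). Crtc2 and Ppargc1b were the 2 members with an unadjusted p under 0.05, which 2263 of the 11092 genes also had.

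**Figure D1:**
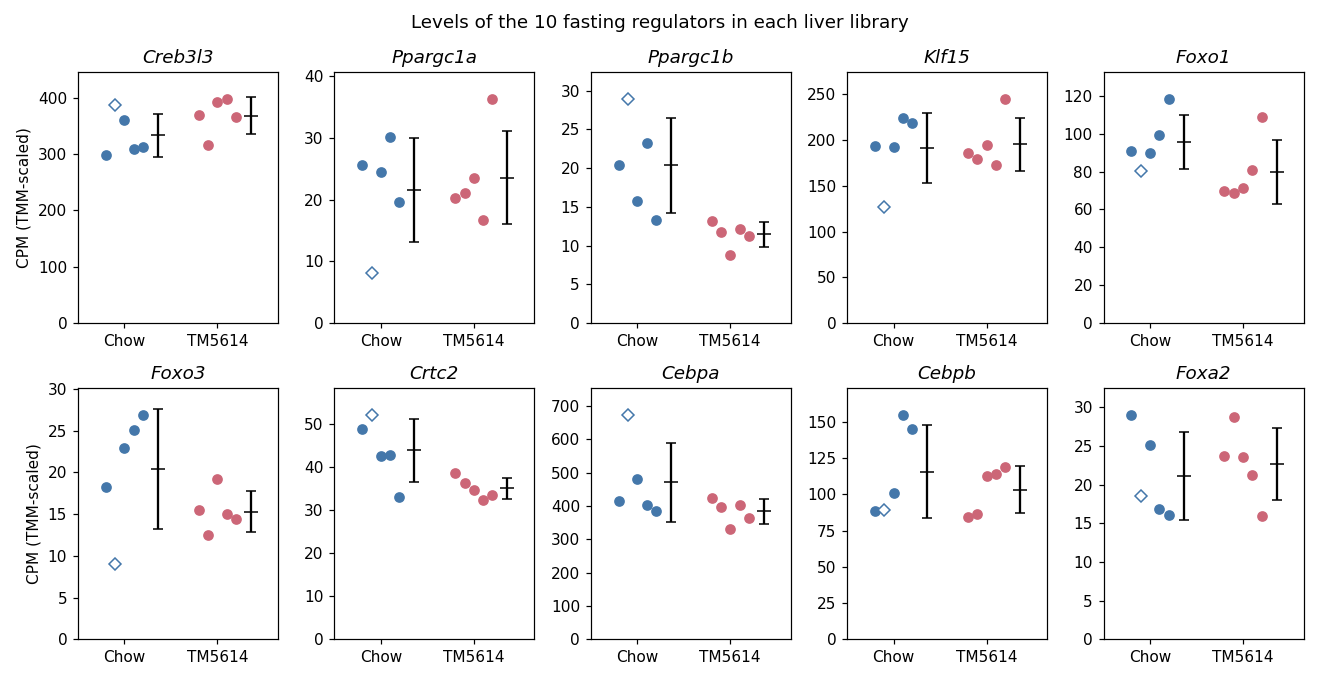
Levels of the 10 members in CPM (linear axes from 0) in the 5 Chow (blue) and 5 TM5614 (red) libraries, left to right from replicate 1 to 5, with mean and SD at the right of each group; the open diamond is Chow replicate 2. Ppargc1b is the one panel in which all TM5614 points lie below all Chow points, and the open diamond is at an end of the Chow group in 8 of the 10 panels.

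The FOXO factors are kept out of the nucleus by insulin and return to it in fasting. Foxo1 (chromosome 3, 52268336 to 52353221, plus strand) was at 90.6, 80.2, 89.7, 99.2 and 118 CPM in Chow and at 69.5, 68.5, 71.6, 81.0 and 109 CPM in TM5614. In 3 of the 5 TM5614 libraries it was below every Chow library, and TM5614 replicate 5 was above all Chow libraries but 1. Its log2 fold change of -0.26 (SE 0.15, 95% interval -0.59 to 0.07) did not pass (edgeR adjusted p = 0.360). Under the 19 alternatives it lay between -0.40 and -0.17, and 0 of them called it. With GC content and length taken out it was -0.38 (edgeR adjusted p = 0.0990). Up to 589 exonic bases of Foxo1 are shared with the antisense gene Gm20402, and whether counting used strand is not given in the sources used here.

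Foxo3 (chromosome 10, 42181841 to 42276755, minus strand) was not called with all 10 libraries by edgeR and was called without 1 of them. It stood at 18.2, 8.97, 22.9, 25.0 and 26.9 CPM in Chow and at 15.5, 12.5, 19.1, 15.0 and 14.5 CPM in TM5614. Chow replicate 2 was the lowest of all 10 libraries, while the other 4 Chow libraries were above all TM5614 libraries except replicate 3. With all libraries the log2 fold change was -0.41 (SE 0.25, 95% interval -0.95 to 0.13, edgeR adjusted p = 0.373). Without Chow replicate 2 the Chow mean was 23.2 ± 3.74 CPM (SD, n = 4) and Foxo3 fell by 0.61 on the log2 scale (SE 0.14, edgeR adjusted p = 0.0202). limma-voom with sample quality weights, which called 12.5% of all genes, also called Foxo3 (log2 fold change -0.55, limma adjusted p = 0.0204). DESeq2, which called 8.14% of all genes, called Ppargc1b and no other member. Taking out GC content and length in place of the library left Foxo3 at -0.39 (edgeR adjusted p = 0.326).

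Creb3l3 (chromosome 10, 81084324 to 81098874, minus strand) encodes the membrane-bound liver factor known to drive Fgf21 and apolipoprotein genes in fasting. Its values were 299, 388, 360, 309 and 313 CPM in Chow and 369, 315, 393, 398 and 367 CPM in TM5614. Of the TM5614 libraries, 4 were above all Chow libraries except replicate 2. The log2 fold change was 0.14 (SE 0.11, 95% interval -0.10 to 0.38, edgeR adjusted p = 0.480), and it was positive under all 19 alternatives without passing the threshold under any of them. It ranged from 0.10 to 0.31, the highest with GC content and length taken out (edgeR adjusted p = 0.134). The lowest edgeR adjusted p was 0.0713, without Chow replicate 2 and TM5614 replicate 2 together (0.25).

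Klf15 (chromosome 6, 90462576 to 90475238, plus strand) encodes a factor known for amino acid catabolism and gluconeogenesis in fasting. It read 193, 127, 193, 224 and 219 CPM in Chow against 186, 179, 194, 173 and 245 CPM in TM5614. Chow replicate 2 was again the lowest library, and the other 9 ranged together. The log2 fold change was 0.03 (SE 0.16, 95% interval -0.31 to 0.38, edgeR adjusted p = 0.925). It was -0.09 without Chow replicate 2 and -0.06 without TM5614 replicate 5.

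Cebpa and Cebpb are single-exon genes that encode liver C/EBP factors, the first a factor of hepatocyte differentiation and metabolism and the second known to be induced by cyclic AMP and in the acute phase. Cebpa (chromosome 7, 35119293 to 35121928, plus strand) was at 414, 673, 481, 403 and 384 CPM in Chow and at 424, 397, 331, 404 and 363 CPM in TM5614. Chow replicate 2 was the highest library by a wide margin, and the other 4 Chow libraries overlapped the TM5614 range. Its log2 fold change was -0.29 (SE 0.16, 95% interval -0.63 to 0.04, edgeR adjusted p = 0.310). The estimate shrank to -0.14 without Chow replicate 2 and to -0.04 with GC content and length taken out.

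Cebpb (chromosome 2, 167688915 to 167690418, plus strand) varied within each group more than between the groups. It stood at 88.4, 89.1, 101, 155 and 145 CPM in Chow and at 84.6, 86.7, 113, 114 and 119 CPM in TM5614. In Chow, replicates 4 and 5 lay well above the other 3. The log2 fold change of -0.16 (SE 0.18, 95% interval -0.56 to 0.24, edgeR adjusted p = 0.637) turned to 0.13 with GC content and length taken out. The longest transcript of Cebpb had a GC content of 67.2%, the highest of the 10 members, and that of Ppargc1a 41.7%, the lowest. Exons of Cebpb share up to 312 bases with Tmem189 on the opposite strand, and those of Cebpa share 51 with the antisense gene Gm45091.

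Foxa2 (chromosome 2, 148042877 to 148046969, minus strand) encodes a forkhead factor that opens chromatin at liver genes. It was at 29.0, 18.5, 25.2, 16.8 and 16.1 CPM in Chow and at 23.7, 28.7, 23.6, 21.3 and 15.9 CPM in TM5614, with the lowest and the highest values of both groups close to each other. The log2 fold change was 0.10 (SE 0.20, 95% interval -0.33 to 0.53, edgeR adjusted p = 0.803), and it was -0.0048 without TM5614 replicate 2.

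Over the 10 members, 4 log2 fold changes were above 0 and 6 below, with a median of -0.21, beside 0.01 for all genes tested. With GC content and length taken out the members' median was -0.03. None was called higher and 1 was called lower by edgeR, and an adjusted p under 0.01 called none.

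**Figure D2:**
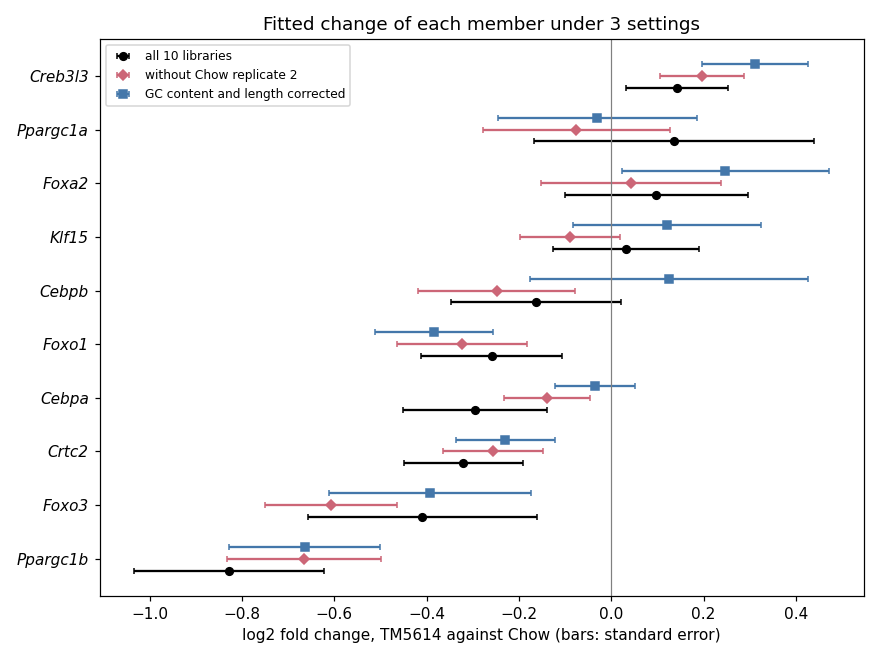
Fitted log2 fold change of each member, TM5614 against Chow, with standard errors, for all 10 libraries (black), without Chow replicate 2 (red) and with GC content and length taken out (blue). Ppargc1b lies furthest below 0 in each fit, and the estimates of Ppargc1a, Klf15 and Cebpb cross 0 between fits.

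Levels can be compared between genes only per length, for which the deposited FPKM were used. The order of the Chow means was Cebpa at 176, Creb3l3 at 144, Klf15 at 82.3, Cebpb at 75.3, Foxo1 at 17.0, Crtc2 at 16.5, Foxa2 at 8.81, Foxo3 at 6.97, Ppargc1b at 5.50 and Ppargc1a at 3.29 FPKM. The DNA-binding factors Cebpa, Creb3l3, Klf15 and Cebpb were thus at the top and both PGC-1 coactivators at the bottom. Between neighbours in this order, Creb3l3 exceeded Klf15, Cebpb exceeded Foxo1 and Crtc2 exceeded Foxa2 in all 10 libraries with no overlap of their ranges. The other neighbours overlapped in at least 1 group. Cebpa exceeded Creb3l3 in 6 of the 10 libraries and Foxo1 exceeded Crtc2 in 4. Ppargc1b exceeded Ppargc1a in 5 of the 5 Chow libraries, with means of 5.50 and 3.29 FPKM, but in 2 of the 5 TM5614 libraries, where the order of the means turned (3.09 and 3.58 FPKM).

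**Figure D3:**
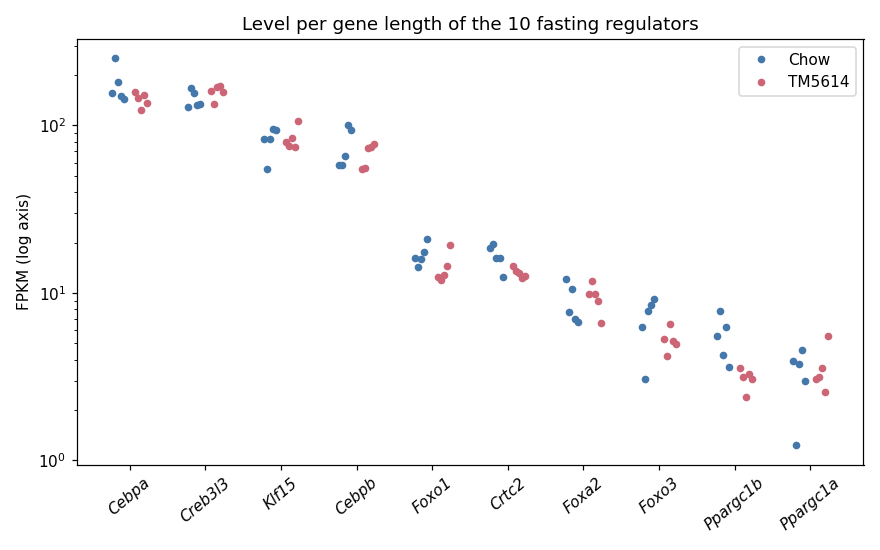
Level per gene length (FPKM, log axis) of the 10 members in each Chow (blue) and TM5614 (red) library, ordered by the Chow mean. Cebpa, Creb3l3, Klf15 and Cebpb form an upper tier, and Ppargc1a and Ppargc1b are at the foot.

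Whether related members responded differently was tested on the log2 ratio of their CPM within each library, which does not depend on how libraries are scaled. The ratio of Ppargc1a to Ppargc1b was 0.33, -1.81, 0.63, 0.37 and 0.55 in Chow and 0.61, 0.82, 1.39, 0.45 and 1.67 in TM5614. Of the TM5614 libraries, 3 were above all Chow libraries, and Chow replicate 2 was far below the rest. The ratio was 0.97 higher in TM5614 (exact two-sided permutation test, p = 0.0397, adjusted over 3 pairs p = 0.119), and 0.52 higher without Chow replicate 2. It did not pass after adjustment, so the coactivators were not shown to differ in response.

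The ratio of Foxo1 to Foxo3 differed by 0.06 (exact permutation p = 0.825, adjusted p = 0.825) and that of Cebpa to Cebpb by -0.13 (exact permutation p = 0.706, adjusted p = 0.825). Both changed sign when single libraries were left out, between -0.08 and 0.26 for the FOXO pair and between -0.30 and 0.09 for the C/EBP pair. The spread of the Chow ratios was 0.48 (SD, n = 5) for the FOXO pair and 0.65 for the C/EBP pair, each wider than the difference between the groups.

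Other genes of the same pathways were counted from lists of 120 genes in all, of which 114 were tested. Of these, 20 passed the threshold, 10 higher and 10 lower in TM5614, beside 4.50% of all genes. The lists were drawn up with earlier results of these data known, so the counts are descriptions. The count ranged from 12 without TM5614 replicate 3 to 31 without Chow replicate 2.

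Upstream of the members, glucagon and cyclic AMP signalling held 17 tested genes, of which 1 was called. Crem, which encodes CREB-family activators and the repressor ICER, was at 12.9, 8.30, 14.4, 13.5 and 13.1 CPM in Chow and at 16.2, 20.0, 20.6, 21.7 and 23.1 CPM in TM5614. All TM5614 libraries were above all Chow libraries, and Crem rose by 0.72 on the log2 scale (SE 0.16, edgeR adjusted p = 0.0260). The paralogs of Crtc2 were near 0, with log2 fold changes of 0.04 for Crtc1 and 0.03 for Crtc3. None of the 7 tested genes of the CREB3 family and its processing was called, among them the proteases Mbtps1 (-0.08) and Mbtps2 (0.45). Without Chow replicate 2, 1 of the 7 was called, Creb3 (0.29, edgeR adjusted p = 0.0289), as it was without both replicate 2 libraries (0.30, edgeR adjusted p = 0.0274). With GC content and length taken out, Syvn1, a ubiquitin ligase of the endoplasmic reticulum, was called instead (0.54, edgeR adjusted p = 0.0387). In the PGC-1 list of family members, partners and modifiers, none of 13 was called, and Hnf4a, a factor that PGC-1α coactivates, was at 0.16. Esrra, of the same list, was at -0.40 (edgeR adjusted p = 0.186). It was called lower without both replicate 2 libraries (-0.38, edgeR adjusted p = 0.0492). Without Chow replicate 2 alone it was not called (-0.29, edgeR adjusted p = 0.192). In the FOXO and insulin list, 1 of 10 was called: Irs1, an insulin receptor substrate, rose by 0.62 (edgeR adjusted p = 0.0485). Without Chow replicate 2, Pik3r1, a subunit of the insulin-activated lipid kinase, was called too and fell by 0.61 (edgeR adjusted p = 0.0453).

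Genes known as targets of the members held further calls. Of 8 genes known as CREB3L3 targets, 3 were higher and 1 lower, with a median log2 fold change of 0.31. Without Chow replicate 2 the median was 0.44, with 4 higher and 1 lower. Fgf21, a fasting hormone, was at 1.21, 1.54, 1.77, 0.48 and 1.38 CPM in Chow and at 9.62, 9.86, 11.2, 10.2 and 13.9 CPM in TM5614. It had few counts in Chow, the groups did not overlap, and it rose by 3.04 on the log2 scale (SE 0.24, edgeR adjusted p = 0.000136). Cidec, a lipid droplet protein, went from 4.99 ± 1.30 to 27.1 ± 8.14 CPM (SD, n = 5 each), a rise of 2.43 (edgeR adjusted p = 0.000340). Hamp, which encodes hepcidin and has a near-identical copy that may share its reads, rose by 1.35 (edgeR adjusted p = 0.0231). Apcs, an acute-phase protein, fell by 0.85 (edgeR adjusted p = 0.00733). The apolipoprotein genes of the list were not called, with Apoa5 at 0.37 (edgeR adjusted p = 0.106), Apoa4 at 0.17 and Apoc2 at 0.01. For Apoa5 the groups did not overlap. It was called without Chow replicate 2 (0.43, edgeR adjusted p = 0.0150) and with GC content and length taken out (0.52, edgeR adjusted p = 0.00527).

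Among 11 genes known as FOXO and CREB targets, 2 were higher and none lower, with a median of 0.42. Without Chow replicate 2 the median was 0.20, and without both replicate 2 libraries it was 0.19, with 3 called higher in each fit. G6pc, the last enzyme of gluconeogenesis, was at 168, 119, 253, 183 and 217 CPM in Chow and at 485, 375, 726, 700 and 566 CPM in TM5614. The groups were well apart, and G6pc rose by 1.60 on the log2 scale (SE 0.22, edgeR adjusted p = 0.00185). Pdk4, which restrains pyruvate oxidation, rose by 3.56 (SE 0.69, edgeR adjusted p = 0.0122), with 144 CPM in TM5614 replicate 2 and 12.6 to 40.3 CPM in the other 4. TM5614 replicate 2 also held by far the most skeletal muscle marker RNA, and Pdk4 is expressed in muscle. The part of muscle RNA in the Pdk4 level of this library was not tested. Without this library Pdk4 rose by 2.51 (SE 0.39, edgeR adjusted p = 0.00611). Pck1, the enzyme of the committed step of gluconeogenesis, was not called (log2 fold change 0.16, edgeR adjusted p = 0.677). Pck1 and G6pc are both known to respond to CREB, FOXO1 and PGC-1α, and the difference between them was not tested.

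The lists around KLF15, C/EBP and FOXA2 were short, and their calls stand beside 4.50% of all genes tested. In the KLF family, Klf11 rose by 0.72 (edgeR adjusted p = 0.0287) and Klf13 fell by 0.89 (edgeR adjusted p = 0.0291) among 10 tested genes. Of 9 amino acid catabolism genes linked to KLF15, Prodh, the first enzyme of proline breakdown, was the one called: it went from 209 ± 42.8 to 104 ± 13.1 CPM (SD, n = 5 each) and fell by 1.01 (edgeR adjusted p = 0.00244). Among 4 other C/EBP genes, Cebpe fell by 1.55 (edgeR adjusted p = 0.0333), from 13.1 CPM in Chow replicate 2 and 3.65 to 5.86 CPM in the other Chow libraries to 1.54 to 3.16 CPM in TM5614. None of the 11 FOXA and hepatocyte identity genes was called.

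Some of these calls were lost when libraries were left out 1 at a time, though each change kept its sign. At an adjusted p under 0.05, the calls of Fgf21, Cidec, Apcs, G6pc, Pdk4 and Prodh held in every alternative fit that tested the gene. Pdk4 (edgeR adjusted p = 0.0122 with all 10 libraries) did not pass an adjusted p under 0.01. Crem was lost without TM5614 replicate 3, 4 or 5 (highest edgeR adjusted p = 0.0761) and Hamp without Chow replicate 1 or 3 or TM5614 replicate 1, 2 or 3 (0.0533). Irs1 was lost in 9 of 19 alternatives, with no filter and without Chow replicate 1, 3 or 4 or any TM5614 replicate (0.136). Klf11 was lost without Chow replicate 1, 4 or 5 or TM5614 replicate 1, 2 or 3 (0.0955), Klf13 without Chow replicate 3, 4 or 5 or TM5614 replicate 1, 2, 3 or 4 (0.0962), and Cebpe without Chow replicate 4 or TM5614 replicate 3, 4 or 5 (0.1002).

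The last lists hold genes that act beside the members. In the glucocorticoid list, 1 of 6 was called, and it is also a clock gene: Per1 fell by 0.75 (edgeR adjusted p = 0.0304), and its call was lost with GC content and length taken out, without Chow replicate 3, 4 or 5 and without TM5614 replicate 1, 2, 3 or 4 (highest edgeR adjusted p = 0.0948). With all 10 libraries, 4 of the 6 log2 fold changes were below 0 and 2 above, Sgk1 (1.00, edgeR adjusted p = 0.0689) and Tat (0.42). Tsc22d3, among those below, was at -0.04. Without Chow replicate 2, 3 of the 6 were called lower and 0 higher. Fkbp5 (-0.997, edgeR adjusted p = 0.0166) and Zbtb16 (-1.32, edgeR adjusted p = 0.0394) were then called beside Per1. The count was also 3 without both replicate 2 libraries. Fkbp5 and Zbtb16, and likewise Creb3, Syvn1, Esrra, Pik3r1 and Apoa5 above, are named for these calls after their values were seen. In the clock list, 8 of 14 were called, 2 higher and 6 lower. Among those called, Dbp had a log2 fold change of -1.99 (edgeR adjusted p = 0.00179), Per3 of -2.27 (0.00195) and Arntl of 2.76 (0.00659). The labels give no time of collection, and the part of time of day in the fall of Ppargc1b was not tested.

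**Figure D4:**
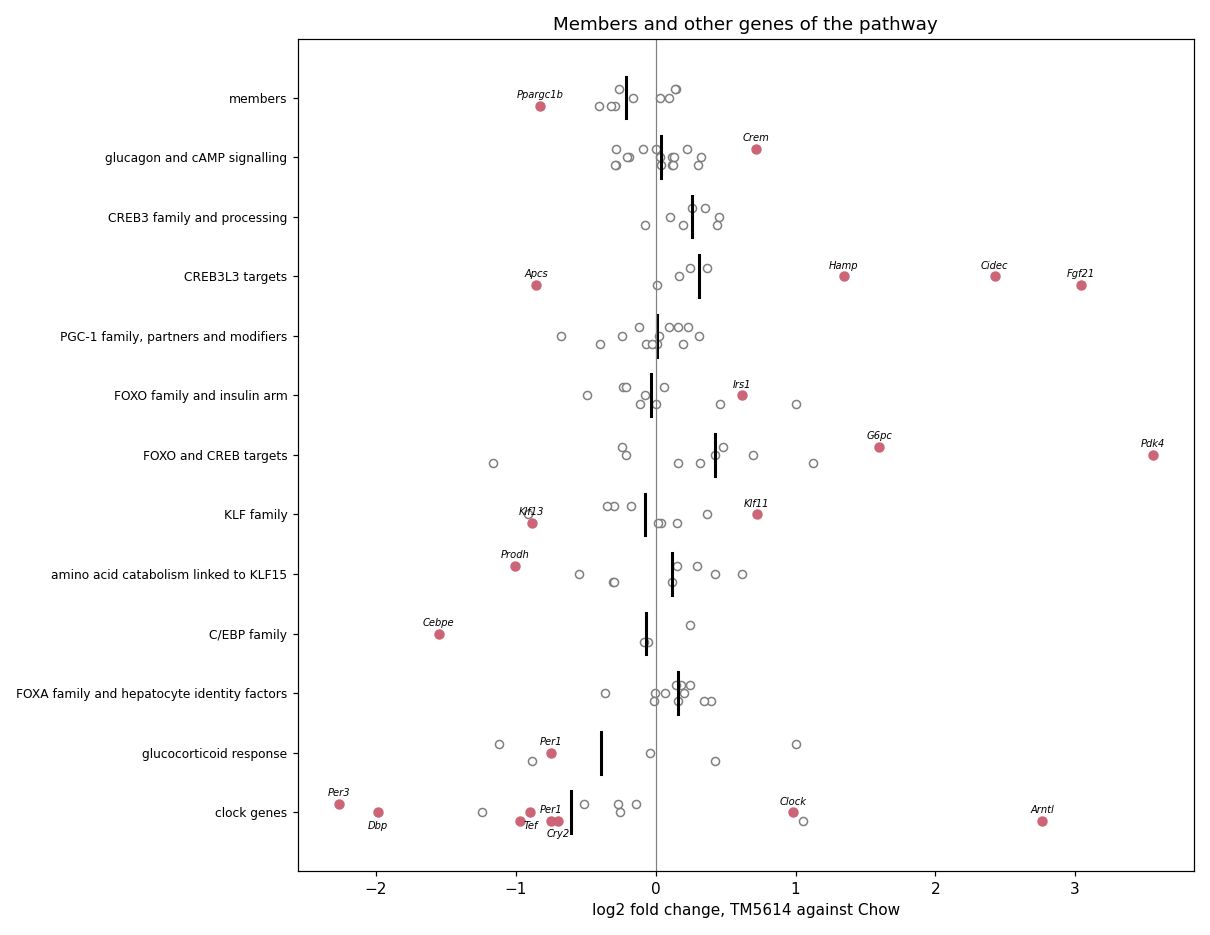
Log2 fold change, TM5614 against Chow, of each tested gene of the members and the 12 pathway lists; filled red points have an edgeR adjusted p under 0.05, open points do not, and bars are list medians. 1 red point has no label. Ppargc1b is the single red point among the members, while clock genes hold 8 and CREB3L3 targets 4.

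Marker genes of liver cell types were read beside the members. Summed hepatocyte markers (10 of 10 above 10 counts) ranged from 122976 to 143503 CPM in Chow and from 115168 to 133105 CPM in TM5614. Kupffer cell markers ranged from 75.4 to 244 CPM in Chow and from 79.0 to 165 CPM in TM5614, and all 10 had a negative log2 fold change with none called. Endothelial markers ranged from 139 to 238 and from 147 to 250 CPM, and cholangiocyte markers from 33.3 to 50.4 and from 27.5 to 74.1 CPM. Stellate cell markers ranged from 180 to 308 CPM in Chow and from 286 to 374 CPM in 4 TM5614 libraries, and 8 of 9 had a positive log2 fold change with none called. They reached 571 CPM in TM5614 replicate 2, where Des, which muscle also expresses, had 1985 counts, against at most 66 in any other library. Erythroid markers ranged from 39.1 to 88.5 and from 34.7 to 54.4 CPM, with 4 of the 5 at 0 in every library. No marker gene that was tested was called. Of the cholangiocyte markers 3 of 6 were tested, of the erythroid markers 1 of 5, and of the 12 skeletal muscle markers none. The part of these cells in the members' values was not tested.

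The 12 skeletal muscle markers summed to 1.27 to 2.02 CPM in Chow, 4627 CPM in TM5614 replicate 2 and 83.8 CPM in TM5614 replicate 3, with 2.01 to 7.20 CPM in the other TM5614 libraries. Several members, among them Ppargc1a and Foxo1, are also expressed in muscle. Without TM5614 replicate 2 the log2 fold changes were -0.85 for Ppargc1b, 0.18 for Ppargc1a, -0.21 for Foxo1 and 0.06 for Klf15, each close to its value with all 10 libraries. Leaving out Chow replicate 2 and TM5614 replicate 2 together, a fit that called 11.1% of all genes, edgeR called 2 members lower, Ppargc1b and Foxo3 (-0.54, edgeR adjusted p = 0.0274).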

How the data were processed

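Livers of 10 mice, 5 per group, were sequenced, with groups read from GEO's titles. By the methods of the study, poly(A) libraries were read as 75-base single ends, aligned with STAR to mm10 and compared with DESeq2, both within the RNA Express application. The submitters' processing notes also name HOMER. The counting step, annotation, versions and strand are not given in the sources used here. The deposited counts are whole numbers per gene symbol, not normalized by the authors. They also deposited FPKM, which are counts per gene length scaled by library and which served here for levels between genes.

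Columns were matched by mouse number. Chi-square per degree of freedom over the 20 replicate pairs was at least 7.50, so no library was taken for a copy. Genes were kept with filterByExpr, scaled by TMM and tested two-sided by the quasi-likelihood functions glmQLFit and glmQLFTest (edgeR 4.0.16, R 4.3.3) on the group alone. Benjamini-Hochberg adjustment covered 11092 genes, with a threshold of 0.05. Each SE is the size of the log2 fold change divided by the root of its F statistic. Ratios used log2 CPM with a prior count of 2. limma 3.58.1 and DESeq2 1.42.0 were alternatives. GC content and length were taken out with splines (5 degrees of freedom), and 96.7% of tested genes had both. Coordinates are those of GENCODE M21 on GRCm38. The scripts were tested on simulated data.

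The members and lists were chosen with earlier results of these data known. Named genes were all members, at most 4 called genes per list by smallest adjusted p, genes that say what a list holds, and the 3 genes nearest to a called member. Counts set the counting error of a level, and the SE of a change also holds the spread between mice, so SEs do not follow the counts alone. 1 gene of the lists is counted but not reported here by name. Authors' own fold changes and p-values were not used.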

Additional observations from a re-analysis of the deposited data

Results flagged for a closer look

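1 of the 26 groups of values examined held a library far from the others. In Chow replicate 2 the log2 ratio of Ppargc1a to Ppargc1b was -1.81, against 0.33 to 0.63 in the other 4 Chow libraries, because it had the lowest Ppargc1a level and the highest Ppargc1b level of all 10 libraries. A test of this kind picks about 5 in 100 groups by chance, or 1.3 of these 26. The part of the GC content and length trend of this library in the ratio was not tested.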

How the results depend on the processing

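The number of members called was 1. It was 2 with limma-voom and without Chow replicate 2 and TM5614 replicate 2 together, 0 with no filter and 0 at an adjusted p under 0.01. With all libraries edgeR gave 2 members an unadjusted p under 0.05, and DESeq2 called 1 member. Leaving out 1 library at a time gave 0 to 2. Genes called numbered 499, against 900 with DESeq2, 1386 with limma-voom, 1230 without both libraries, 184 at an adjusted p under 0.01, and 235 to 1031 with 1 library left out. The lowest came without TM5614 replicate 3 and the highest without Chow replicate 2, with 293 without Chow replicate 3, 331 without TM5614 replicate 1 and 259 without TM5614 replicate 4. Other genes of the pathway called numbered 20, against 36 with limma-voom, 32 without both libraries and 12 to 31 with 1 library left out, all chosen after seeing the data. Creb3l3, Foxo1, Foxo3, Crtc2, Cebpa and Ppargc1b kept their sign under all 19 alternatives. With limma-voom Ppargc1a was at -0.0273, Klf15 at -0.0437 and Foxa2 at -0.0298 on the log2 scale. With GC content and length taken out, Ppargc1a was at -0.0303 and Cebpb at 0.13. Without both libraries, Ppargc1a was at -0.0280, Klf15 at -0.0554 and Foxa2 at -0.0526, and the ratio of Cebpa to Cebpb differed by 0.0152. Leaving out 1 library at a time moved Ppargc1a between -0.0785 and 0.278, Klf15 between -0.0895 and 0.0911 and Foxa2 between -0.0048 and 0.229, with signs turned without Chow replicate 2 or TM5614 replicate 5 for the first 2 genes and without TM5614 replicate 2 for Foxa2. It moved the difference in ratio between -0.0761 and 0.264 for Foxo1 and Foxo3, below 0 without Chow replicate 3 or 4 or TM5614 replicate 5. For Cebpa and Cebpb it was -0.296 to 0.0877, above 0 without Chow replicate 2, and for Ppargc1a and Ppargc1b 0.518 to 1.13. The cause of these shifts was not tested. Replicate numbers are shared by the groups, and the labels do not say whether they mark anything else. Deviations of same-numbered libraries correlated at 0.03, 0.32, 0.12, 0.03 and 0.25. With the replicate block 1 member and 555 genes were called, and 3 of the 10 libraries correlated best with their own number. Counts of 77 to 300 stood behind Ppargc1b, and how far depth limits its call was not tested.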
